A study of Mus musculus with 12 samples.

Results

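The 9 genes described here set the direction of glucose metabolism in liver: Slc2a2, Gckr, Pfkl, Pfkfb1, Pklr, Pcx, Pck1, Fbp1, and G6pc. They were taken by symbol from an expression table of 22456 genes, and all 9 were found. Their choice, and that of the gene lists below, was made with earlier results of these data known. All 9 were also among the 11507 genes tested, whose levels averaged 0.5 RPKM or more over the libraries (RPKM is the read count scaled by transcript length in kilobases and by library size). The libraries were made from liver RNA of 12 male BALB/cByJ mice aged 2 to 8 months, of which 6 were Lpin1+/+ and 6 Lpin1-/-. Of each genotype, 3 were killed fasted and 3 refed, which made 4 groups. Lpin1-/- mice were homozygous for the fatty liver dystrophy (fld) allele of Lpin1, which encodes lipin 1, a phosphatidic acid phosphatase and transcriptional coactivator, and which these mice lack in every tissue. Lpin1+/+ mice were their littermates. All 12 mice were fasted for 16 hours overnight in single cages. Refed mice then had chow for 5 hours, so effects of food and of the later hour cannot be told apart.

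Liver takes up glucose after a meal and burns or stores it, and makes glucose for the rest of the body during a fast. Glycolysis and gluconeogenesis run through the same intermediates in opposite directions and differ at a few steps that are close to irreversible, each with its own enzyme for each direction. At the level of transcription, insulin and glucose raise liver pyruvate kinase, glucose through the carbohydrate-response factor encoded by Mlxipl, while glucagon, glucocorticoid, and FOXO factors raise Pck1 and G6pc.

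The promoters of the 4 genes on which the values below turn most are shown first, each 250 bases before to 50 bases after a transcription start, on the coding strand. Capitals mark every match, on either strand, to 7 short motifs. The downstream of the 2 annotated starts is shown for Pklr, which is where the liver form begins.
Pklr promoter (chr3:89136373-89136672, + strand): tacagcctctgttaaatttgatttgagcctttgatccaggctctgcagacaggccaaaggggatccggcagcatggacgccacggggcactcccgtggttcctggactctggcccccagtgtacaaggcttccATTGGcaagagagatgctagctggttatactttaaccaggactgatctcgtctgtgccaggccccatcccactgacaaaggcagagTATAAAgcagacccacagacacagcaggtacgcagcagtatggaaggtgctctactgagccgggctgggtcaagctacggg
Slc2a2 promoter (chr3:28697653-28697952, + strand): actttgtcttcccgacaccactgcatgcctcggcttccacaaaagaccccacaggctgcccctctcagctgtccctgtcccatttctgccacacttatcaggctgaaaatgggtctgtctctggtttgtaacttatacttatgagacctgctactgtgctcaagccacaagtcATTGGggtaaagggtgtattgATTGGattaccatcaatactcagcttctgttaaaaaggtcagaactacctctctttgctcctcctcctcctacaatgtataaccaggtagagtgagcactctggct
Pck1 promoter (chr2:173152823-173153122, + strand): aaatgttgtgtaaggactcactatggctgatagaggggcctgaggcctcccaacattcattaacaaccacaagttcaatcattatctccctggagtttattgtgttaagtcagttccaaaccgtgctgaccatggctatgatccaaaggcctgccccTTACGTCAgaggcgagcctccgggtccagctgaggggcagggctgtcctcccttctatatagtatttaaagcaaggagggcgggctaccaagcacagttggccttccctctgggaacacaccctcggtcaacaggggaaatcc
G6pc promoter (chr11:101367466-101367765, + strand): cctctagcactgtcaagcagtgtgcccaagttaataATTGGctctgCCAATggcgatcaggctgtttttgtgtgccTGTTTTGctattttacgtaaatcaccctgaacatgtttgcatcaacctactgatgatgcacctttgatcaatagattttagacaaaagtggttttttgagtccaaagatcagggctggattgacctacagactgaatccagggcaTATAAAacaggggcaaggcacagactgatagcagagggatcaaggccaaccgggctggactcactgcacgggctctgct
The sequences are RefSeq promoters of build GRCm38.p6, in which all 9 genes had an entry, with 14 windows in all. The Pklr window held TATAAA 31 bases before the start and CCAAT, on the other strand, 117 bases before it. The Slc2a2 window held CCAAT on the other strand at 77 and 56 bases before the start and no TATAAA. The Pck1 window held TTACGTCA, the letters of its known cyclic AMP response element, 93 bases before the start. That element was the rarest of the motifs, present in 0.499% of the 32851 promoter windows of the same length. The G6pc window held TATAAA at 29, TGTTTTG at 174, and CCAAT at 204 and 214 bases before the start. TATAAA was found in 13.6% of all windows, CCAAT in 37.4%, and TGTTTTG, a forkhead-type motif, in 6.28%. CACGTG, present in 7.15% of windows, was matched among the 14 only in the upstream Pcx window. TGACGTCA (1.79% of windows) and GTAAACA (3.65%) were matched in none of the 14. No motif match overlapped another in these 14 windows.

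Depth did not limit these values. Whole numbers of reads could be recovered from the RPKM values of all 11507 genes tested, within 0.02 of a read, and gave library sizes of 93.5 M to 124.9 M reads (M, megareads). The 9 genes had between 1162 and 568352 reads each in any library, so spread between mice set the precision. Lpin1 stood at 0.726 to 22.0 RPKM in Lpin1+/+ libraries and at 0.00573 to 0.0597 RPKM in Lpin1-/- libraries, with no overlap in either feeding state. The 9 hepatocyte markers found in the table (Alb, Apoa1, and others, of 10 listed) summed to 40963 to 87528 RPKM and the 8 markers of pancreas, muscle, and fat to 6.02 to 40.5 RPKM. A pair of libraries stood apart in markers of other cells. Values without them are given below for some comparisons of the 9 genes, and other comparisons also moved. Replicate 1 of fasted Lpin1-/- had the highest Kupffer cell (933 RPKM), cholangiocyte (452 RPKM), and blood cell (2005 RPKM) sums. The next highest blood cell sum was 892 RPKM, in replicate 3 of that group. Replicate 2 of refed Lpin1+/+ had 849 RPKM of Kupffer cell markers, 103 RPKM of cholangiocyte markers, and the lowest hepatocyte sum.

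**Figure D1:**
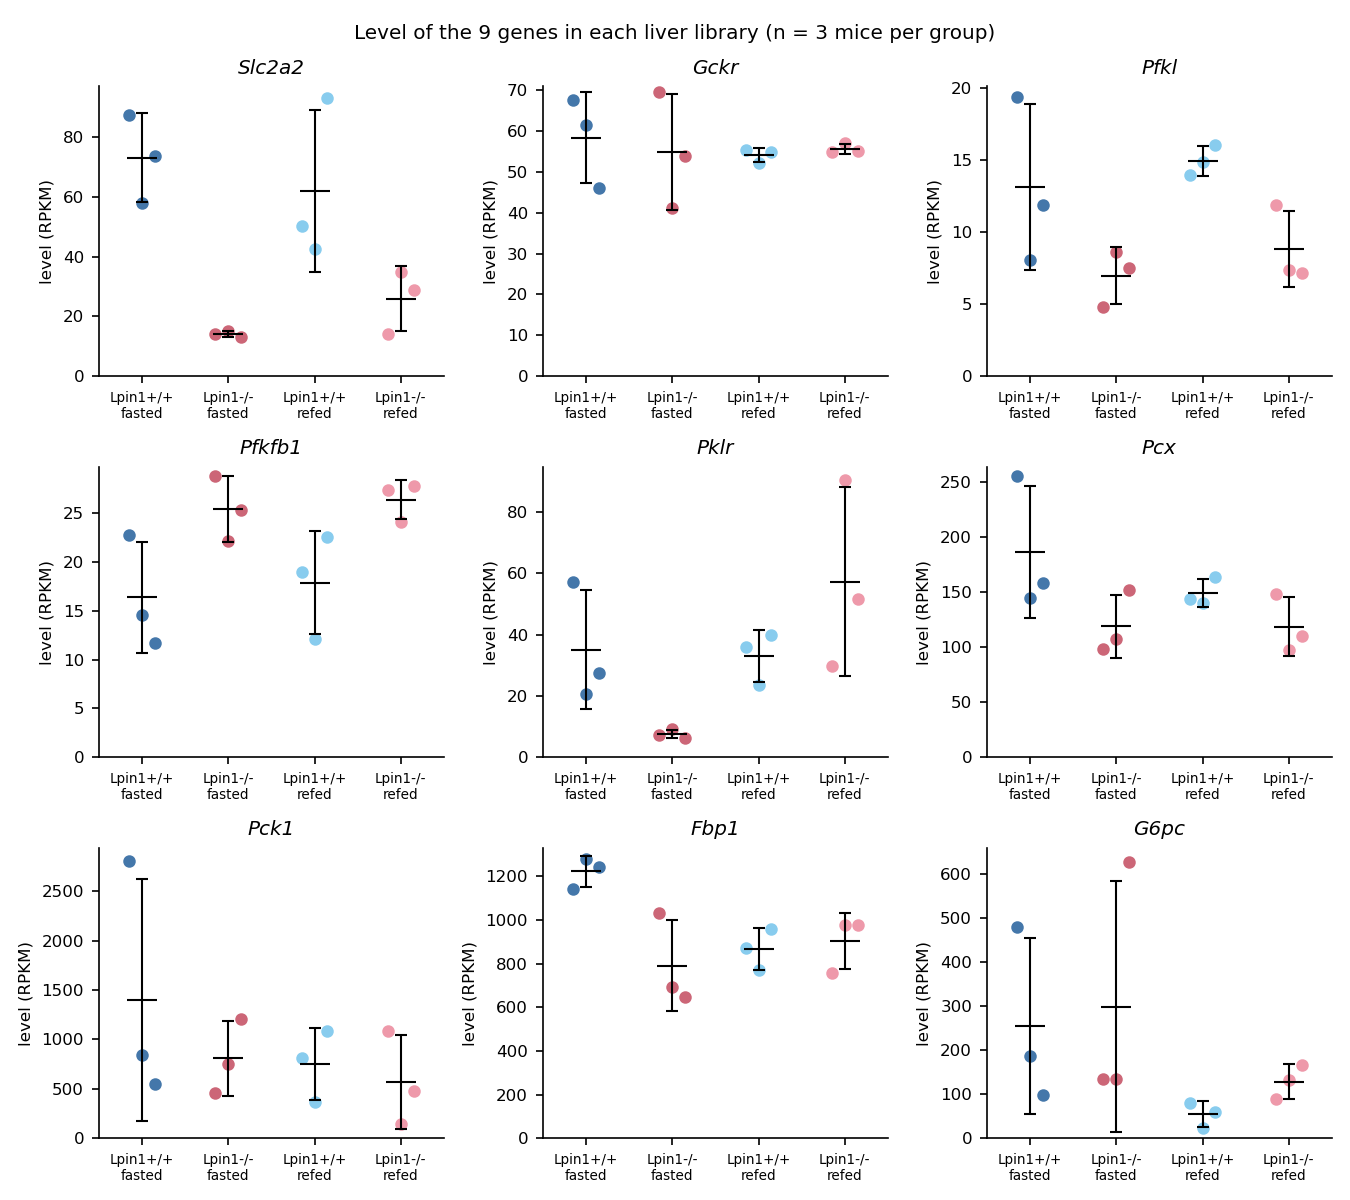
Level of each of the 9 genes (RPKM, linear axis from 0) in the 12 liver libraries, by group. Points are individual mice, horizontal bars the group mean, and error bars the SD of 3 mice. Slc2a2 and Pklr form a low, tight group in fasted Lpin1-/- liver, while Pck1 and G6pc spread widely within groups.

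Slc2a2 encodes GLUT2, the low-affinity transporter through which hepatocytes exchange glucose with blood. It was the most reduced of the 9 genes in fasted Lpin1-/- liver. Slc2a2 (ENSMUSG00000027690.13, chromosome 3 from 28697903 to 28731359 of GRCm38, + strand) had 87.5, 57.8, and 73.8 RPKM in fasted Lpin1+/+ liver and 14.04, 15.2, and 13.2 RPKM in fasted Lpin1-/- liver. Every fasted Lpin1-/- library lay far below every fasted Lpin1+/+ library, and the ratio of the means was 5.16. On the log2(RPKM + 1) scale, on which all differences below are given, the difference between Lpin1-/- and Lpin1+/+ was −2.27 (SE 0.34, limma adjusted p = 0.00158, lower in 3 of 3 libraries). Over 20 alternative settings the difference lay between −2.43 and −2.13 and its adjusted p between 7.90e-04 and 0.0110. Without replicate 1 of fasted Lpin1-/- it was −2.27 (adjusted p = 0.00623).

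After refeeding, Slc2a2 was at 50.3, 42.6, and 93.0 RPKM in Lpin1+/+ and 13.996, 35.0, and 28.9 RPKM in Lpin1-/-. The genotypes again did not overlap, but the difference of −1.23 (SE 0.34, unadjusted p = 0.00400) missed the threshold with an adjusted p of 0.0562. It passed with a minimum of 5 RPKM (adjusted p = 0.0463) and without replicate 2 of refed Lpin1+/+, the library of low hepatocyte markers (−1.46, adjusted p = 0.0499), within a range of 0.0463 to 0.184 over 20 alternatives. The change on refeeding in Lpin1-/- liver was 0.74 (SE 0.34, adjusted p = 0.145), and 2 of its 3 refed libraries lay above the fasted ones while replicate 1, at 13.996 RPKM, lay among them. Without that library the change was 1.12 (adjusted p = 0.0362), and without replicate 2 of refed Lpin1-/- it was 0.48 (adjusted p = 0.393). In Lpin1+/+ liver it was −0.30 (SE 0.34, adjusted p = 0.742).

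Gckr encodes a regulatory protein of hepatocyte nuclei that binds fructose phosphates and acts at the entry to glycolysis. Gckr (ENSMUSG00000059434.9, chromosome 5 from 31297443 to 31327314, + strand) was the steadiest of the 9. Fasted livers had 67.6, 61.3, and 46.1 RPKM with Lpin1 and 69.5, 41.1, and 53.9 RPKM without it. Refed livers had 55.3, 52.1, and 54.9 RPKM with Lpin1 and 54.7, 57.0, and 55.2 RPKM without it. All 4 groups overlapped, and the highest library was 1.69 times the lowest. Its differences were between −0.10 and 0.05 in the 4 comparisons, with 95% intervals of −0.55 to 0.35 for genotype in fasted liver and −0.41 to 0.49 for genotype in refed liver.

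Pklr, the gene of liver pyruvate kinase, which catalyzes the last step of glycolysis, was the other gene past the threshold. Pklr (ENSMUSG00000041237.12, chromosome 3 from 89136142 to 89146784, + strand) had 57.1, 20.7, and 27.4 RPKM in fasted Lpin1+/+ liver and 7.41, 9.14, and 6.30 RPKM in fasted Lpin1-/- liver. All 3 Lpin1-/- libraries lay below all 3 Lpin1+/+ libraries. Lpin1+/+ replicate 1 stood well above the others of its group. The difference was −1.95 (SE 0.42, adjusted p = 0.00905, range over 20 alternatives 0.00583 to 0.0301). It was −1.54 (adjusted p = 0.0250) without that Lpin1+/+ library and −1.94 (adjusted p = 0.0282) without replicate 1 of fasted Lpin1-/-.

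Refed Lpin1-/- liver had 29.7, 90.5, and 51.7 RPKM of Pklr, each above all fasted Lpin1-/- libraries, and the mean was 7.53 times the fasted mean. The change was 2.63 (SE 0.42, adjusted p = 0.00214, higher in 3 of 3 libraries, range over 20 alternatives 0.00114 to 0.0121), and 2.62 (adjusted p = 0.00910) without replicate 1 of fasted Lpin1-/-. In Lpin1+/+ liver, Pklr was at 35.9, 23.7, and 39.8 RPKM after refeeding, within the range of its fasted libraries, with a difference of 0.02 (SE 0.42, 95% interval −0.90 to 0.93). The test of the difference between these responses gave 2.61 (SE 0.59, unadjusted p = 9.27e-04), which just missed the threshold with an adjusted p of 0.0589. Over 19 alternatives its adjusted p ranged from 0.0337 to 0.144. It passed with libraries rescaled to each other, with a pseudocount of 0.1, with a minimum of 5 RPKM, without fasted Lpin1+/+ replicate 2, and without refed Lpin1-/- replicate 1. Refed genotypes overlapped (0.67, SE 0.42, adjusted p = 0.380), with differences from 0.27 without replicate 2 of refed Lpin1-/- to 1.06 without replicate 1.

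Pfkl and Pfkfb1 act at the phosphofructokinase step, and their differences between genotypes had opposite signs, with none past the threshold. Pfkl (ENSMUSG00000020277.10, chromosome 10 from 77986947 to 78010083, − strand), the liver phosphofructokinase that commits glucose to glycolysis, had 19.4, 8.10, and 11.9 RPKM in fasted Lpin1+/+ and 4.82, 8.64, and 7.49 RPKM in fasted Lpin1-/-. After refeeding it had 13.95, 14.9, and 16.0 RPKM in Lpin1+/+ and 11.9, 7.39, and 7.18 RPKM in Lpin1-/-. The fasted groups overlapped and the refed groups did not. The differences between genotypes were −0.78 (SE 0.30, unadjusted p = 0.0254, adjusted p = 0.0965) in fasted and −0.73 (SE 0.30, unadjusted p = 0.0332, adjusted p = 0.178) in refed liver. Over the libraries left out in turn, the fasted difference ran from −0.47 (adjusted p = 0.275) without replicate 1 of fasted Lpin1+/+, the library of 19.4 RPKM, to −1.05 (adjusted p = 0.0314) without replicate 2.

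Pfkfb1 (ENSMUSG00000025271.13, chromosome X from 150588229 to 150643878, + strand) encodes the bifunctional enzyme that makes and removes fructose 2,6-bisphosphate, the signal that activates phosphofructokinase and inhibits fructose-1,6-bisphosphatase. It stood at 22.8, 14.6, and 11.7 RPKM in fasted Lpin1+/+ and at 28.8, 22.1, and 25.3 RPKM in fasted Lpin1-/-. Refed values were 19.0, 12.1, and 22.5 RPKM in Lpin1+/+ and 27.3, 24.1, and 27.8 RPKM in Lpin1-/-. The Lpin1-/- libraries were thus the higher ones, with an overlap in fasted liver through Lpin1+/+ replicate 1. The differences were 0.65 (SE 0.26, unadjusted p = 0.0298, adjusted p = 0.108) in fasted and 0.58 (SE 0.26, unadjusted p = 0.0485, adjusted p = 0.219) in refed liver. Without replicate 1 of fasted Lpin1+/+, the fasted difference was 0.90 (adjusted p = 0.0297), within a range of 0.0297 to 0.339 over 20 alternatives. Without replicate 2 of refed Lpin1+/+, the library of low hepatocyte markers, the refed difference was 0.33 (adjusted p = 0.559).

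**Figure D2:**
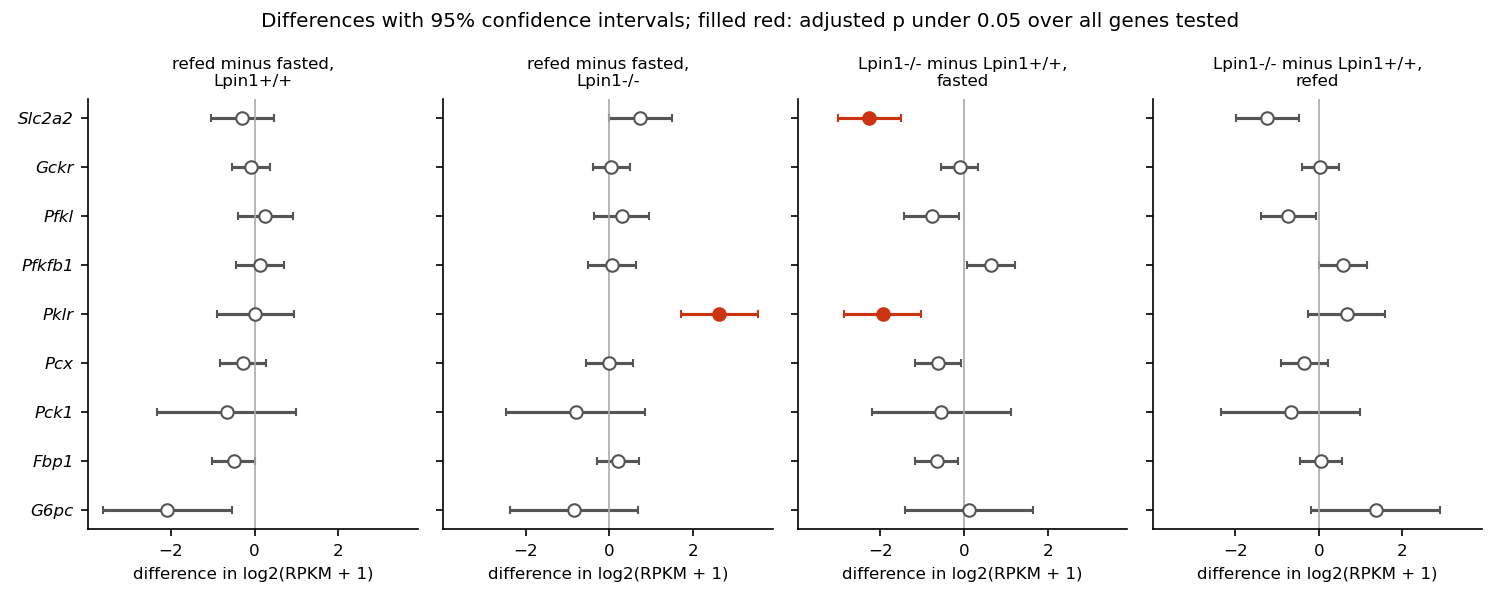
Difference in log2(RPKM + 1) of each of the 9 genes in 4 comparisons, with 95% confidence intervals from the limma fit over all genes. Filled red points have an adjusted p under 0.05, which holds for Slc2a2 (−2.27) and Pklr (−1.95) between genotypes in fasted liver and for Pklr (2.63) on refeeding of Lpin1-/- mice. The intervals of Pck1 and G6pc are the widest.

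Of the 4 gluconeogenic genes, none passed the threshold in any comparison at the level of the whole gene. Pcx (ENSMUSG00000024892.17, chromosome 19 from 4510472 to 4621752, + strand) encodes pyruvate carboxylase, which starts gluconeogenesis from pyruvate in mitochondria. Fasted livers had 255.7, 145, and 159 RPKM with Lpin1 and 98.5, 107, and 152 RPKM without it. Refed livers had 144, 141, and 164 RPKM with Lpin1 and 149, 97.4, and 111 RPKM without it. Lpin1-/- means were the lower in both feeding states, with overlap in each. The difference in fasted liver was −0.62 (SE 0.25, unadjusted p = 0.0322, adjusted p = 0.114), and −0.37 (adjusted p = 0.309) without replicate 1 of fasted Lpin1+/+, the library of 255.7 RPKM. In refed liver it was −0.35 (adjusted p = 0.455), and −0.22 (adjusted p = 0.717) without replicate 2 of refed Lpin1-/-.

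Pck1 (ENSMUSG00000027513.11, chromosome 2 from 173153048 to 173159273, + strand) encodes cytosolic phosphoenolpyruvate carboxykinase, which carries oxaloacetate past the pyruvate kinase step. Its highest value was 2802 RPKM in replicate 1 of fasted Lpin1+/+, against 839 and 549 RPKM in the others of that group. Fasted Lpin1-/- libraries had 461, 754, and 1209 RPKM, refed Lpin1+/+ libraries 812, 363, and 1083 RPKM, and refed Lpin1-/- libraries 1089, 149, and 483 RPKM. Every group overlapped every other. The differences between genotypes were −0.54 (95% interval −2.20 to 1.12) in fasted and −0.67 (−2.33 to 0.99) in refed liver. Both intervals span 0 widely. Without replicate 1 of fasted Lpin1-/- the fasted difference was −0.19, and without the Lpin1+/+ library of 2802 RPKM its sign turned (0.14, adjusted p = 0.923). Without replicate 2 of refed Lpin1+/+ the refed difference was −1.13, and without replicate 2 of refed Lpin1-/- its sign turned (0.086, adjusted p = 0.961). The replicate of 2802 RPKM also had the highest Lpin1, Pfkl, and Pcx of all 12 libraries.

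Fbp1 (ENSMUSG00000069805.10, chromosome 13 from 62864753 to 62888282, − strand) encodes fructose-1,6-bisphosphatase, which opposes phosphofructokinase. Its values in fasted Lpin1+/+ liver, 1142, 1280, and 1244 RPKM, were above those of all 9 other libraries. Fasted Lpin1-/- liver had 1031, 693, and 647 RPKM, refed Lpin1+/+ liver 871, 770, and 960 RPKM, and refed Lpin1-/- liver 755, 978, and 978 RPKM. Between genotypes in fasted liver the difference was −0.66 (SE 0.23, unadjusted p = 0.0156, adjusted p = 0.0698). It passed without a trend in the variance (adjusted p = 0.0439) and without replicate 1 of fasted Lpin1-/-, the library of high Kupffer cell and cholangiocyte markers (−0.86, adjusted p = 0.0303). With rescaled libraries it was −0.53 (adjusted p = 0.274), and its adjusted p ranged from 0.0303 to 0.274 over 20 alternatives. On refeeding the difference was −0.50 (SE 0.23, unadjusted p = 0.0536, adjusted p = 0.364) in Lpin1+/+ and 0.21 (SE 0.23, adjusted p = 0.529) in Lpin1-/-.

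G6pc (ENSMUSG00000078650.2, chromosome 11 from 101367561 to 101377903, + strand) encodes the catalytic subunit of glucose-6-phosphatase, the last step before glucose leaves the cell. It had 479.6, 187, and 98.1 RPKM in fasted Lpin1+/+ and 135, 134, and 629 RPKM in fasted Lpin1-/-. A single library in each fasted group thus stood far above the others. Refed livers had 80.6, 22.3, and 60.7 RPKM in Lpin1+/+ and 88.2, 132, and 166 RPKM in Lpin1-/-. All refed Lpin1+/+ libraries lay below all fasted ones, with a mean 0.214 times the fasted mean and a difference of −2.08 (SE 0.70, unadjusted p = 0.0120, adjusted p = 0.199), or −1.55 (adjusted p = 0.4496) without replicate 2 of refed Lpin1+/+. In Lpin1-/- liver the groups overlapped, with a difference of −0.85 (SE 0.70, adjusted p = 0.403), and −0.11 (adjusted p = 0.915) without replicate 3 of fasted Lpin1-/-, the library of 629 RPKM. Refed Lpin1-/- libraries all lay above refed Lpin1+/+ libraries, by 1.36 (SE 0.70, unadjusted p = 0.0771, adjusted p = 0.280), or 0.82 (adjusted p = 0.620) without replicate 2 of refed Lpin1+/+. The test of the difference between the refeeding responses gave 1.24 (95% interval −0.93 to 3.402), so a difference was not detectable at this spread. Without replicate 2 of refed Lpin1+/+ it gave 0.70.

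Set against all genes, the counts over the 9 were as follows. On refeeding in Lpin1+/+ liver 0 of 9 passed in limma, 1 had an unadjusted p under 0.05, and voom on the recovered reads also called 0, where 1.72% of all 11507 genes passed (1.52% higher and 0.2% lower). On refeeding in Lpin1-/- liver 1 of 9 was higher, where 17.8% of all genes were higher and 2.92% lower (20.7% in either direction). Between genotypes in fasted liver 2 of 9 were lower, where 13.2% of all genes were lower and 5.63% higher (18.8% in either direction). In refed liver 0 of 9 passed, 3 had an unadjusted p under 0.05, and voom called 0, where 6.67% of all genes passed (2.6% higher and 4.07% lower). The test of the difference between refeeding responses called 0 of 9 in limma and in voom, with 1 at an unadjusted p under 0.05, where 1.28% of all genes passed (0.791% higher and 0.487% lower). Groups did not overlap for 2 of 9 on refeeding in Lpin1+/+ (18.1% of all genes), 1 of 9 on refeeding in Lpin1-/- (46.8%), 3 of 9 between genotypes in fasted liver (32.9%), and 4 of 9 in refed liver (33.9%). The median difference over the 9 was −0.62 between genotypes in fasted liver, against −0.14 for all genes, and 0.06 on refeeding in Lpin1-/-, against 0.25 for all genes. The comparisons share libraries, so their counts are not independent.

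Paired by step, the glycolytic gene was below its gluconeogenic counterpart in all 12 libraries for both pairs that the 9 genes form. The log2 ratio of Pfkl to Fbp1 had means of −6.63 ± 0.72 (SD, n = 3) with Lpin1 and −6.83 ± 0.79 without it in fasted liver. In refed liver they were −5.85 ± 0.14 with Lpin1 and −6.71 ± 0.62 without it, and the refed Lpin1+/+ libraries were the closest to each other. The log2 ratio of Pklr to Pck1 was lowest in fasted Lpin1-/- (−5.96, −6.37, and −7.58), where all 3 libraries lay below the fasted Lpin1+/+ ones (−5.62, −5.34, and −4.33). In refed Lpin1-/- it ranged from −5.19 to −0.72 over 3 mice, wider than in any other group. These ratios are descriptions and were not tested.

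**Figure D3:**
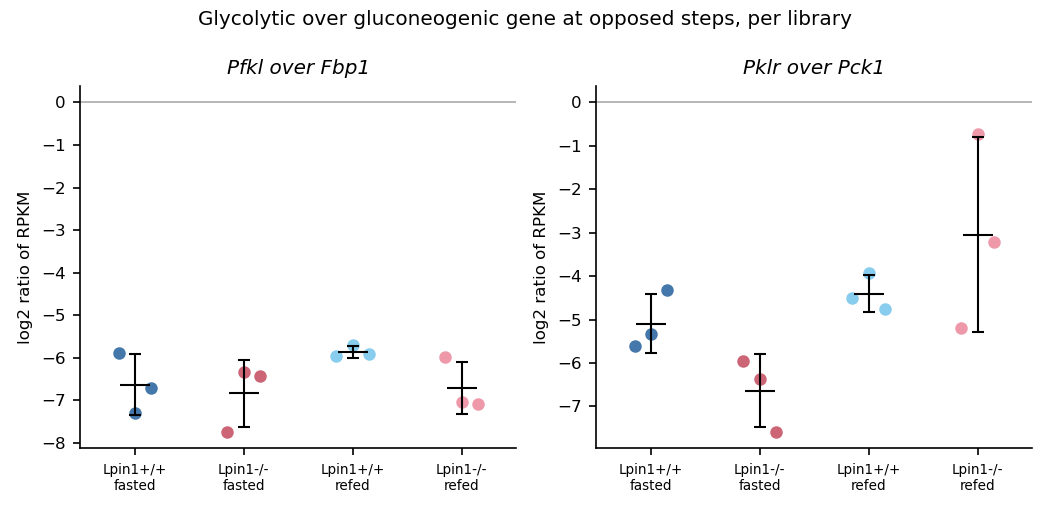
Log2 ratio of RPKM of a glycolytic gene to the gluconeogenic gene of the opposed step, per library, for Pfkl over Fbp1 and Pklr over Pck1. Points are mice, bars the group mean and SD of 3. Every value is below 0, and Pklr over Pck1 ranges from −5.19 to −0.72 in refed Lpin1-/- liver.

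Among the other enzymes of the pathway that are reported here, 23 of 27 passed the filter on low values. On refeeding, 0 of 23 passed in limma in Lpin1+/+ liver, with 4 at an unadjusted p under 0.05, and 6 rose and 0 fell in Lpin1-/- liver. Of all genes 1.72% passed in Lpin1+/+, and 17.8% rose and 2.92% fell in Lpin1-/- liver. Between genotypes, 1 was higher and 1 lower in fasted Lpin1-/- liver, and 3 were higher and 0 lower in refed Lpin1-/- liver. The shares of all genes were 5.63% higher and 13.2% lower in fasted liver, and 2.6% higher and 4.07% lower in refed liver. With libraries rescaled to each other the counts over the 23 enzymes were 0, 5 higher, 3 higher with 1 lower, and 4 higher. The test of the difference between refeeding responses called 0 of 23 with and without that rescaling, where 1.28% of all genes passed in the main fit. In the main fit 5 of the 23 had an unadjusted p under 0.05 there, and the median was 0.11, against 0.09 for all genes. Over all genes that rescaling took the median change on refeeding to −3.91e-04 (from 0.19) in Lpin1+/+ and to 0.06 (from 0.25) in Lpin1-/-. It took the share of higher genes among those called on refeeding from 88.4% to 63.3% and from 85.9% to 68.9%, respectively. Between genotypes it moved that share from 29.9% to 41.0% in fasted and from 39.0% to 57.3% in refed liver.

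Slc37a4, the transporter that feeds glucose 6-phosphate to glucose-6-phosphatase, was higher in refed Lpin1-/- than in refed Lpin1+/+ liver (1.44, SE 0.38, adjusted p = 0.0473). That call was lost in 12 of 20 alternatives (range 0.0232 to 0.156), among them with the replicate block (0.0800) and when any 1 of the 6 refed libraries was left out. Aldoa, an enzyme that splits fructose 1,6-bisphosphate, was also higher there, at 196.9 ± 17.0 RPKM against 87.7 ± 18.5 RPKM (SD, n = 3; 1.18, SE 0.19, adjusted p = 0.00643, range 0.00432 to 0.0324). Pgam1, phosphoglycerate mutase, was higher by 0.70 (SE 0.16, adjusted p = 0.0287), a call lost in 7 of 20 alternatives (range 0.0203 to 0.107), with the replicate block (0.0552) and when any 1 of the 6 refed libraries was left out. Tpi1, triose phosphate isomerase, rose on refeeding in Lpin1-/- liver by 1.23 (SE 0.19, adjusted p = 0.00196), Aldoa by 1.22 (SE 0.19, adjusted p = 0.00196), and Tigar, which lowers fructose 2,6-bisphosphate, by 1.18 (SE 0.22, adjusted p = 0.00465). In Lpin1+/+ liver their means went from 341 to 372, 54.8 to 87.7, and 5.66 to 10.3 RPKM, respectively, none past the threshold. Tpi1, Aldoa, and Pgam1 have processed copies elsewhere in the genome with which reads may be shared. Ldha, which interconverts pyruvate and lactate, was lower in fasted Lpin1-/- liver (307 ± 64.1 RPKM against 790 ± 183 RPKM, −1.36, SE 0.24, adjusted p = 0.00308), and Aldoa was higher (0.61, SE 0.19, adjusted p = 0.0445, range 0.0222 to 0.127), a call lost in 13 of 20 alternatives, among them when any 1 of the 6 fasted libraries was left out. Pkm, the pyruvate kinase of other tissues, stood at 2.59 to 11.4 RPKM in 11 libraries and at 45.9 RPKM in replicate 2 of refed Lpin1+/+, the library with high Kupffer cell markers. Their part in that value was not tested.

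**Figure D4:**
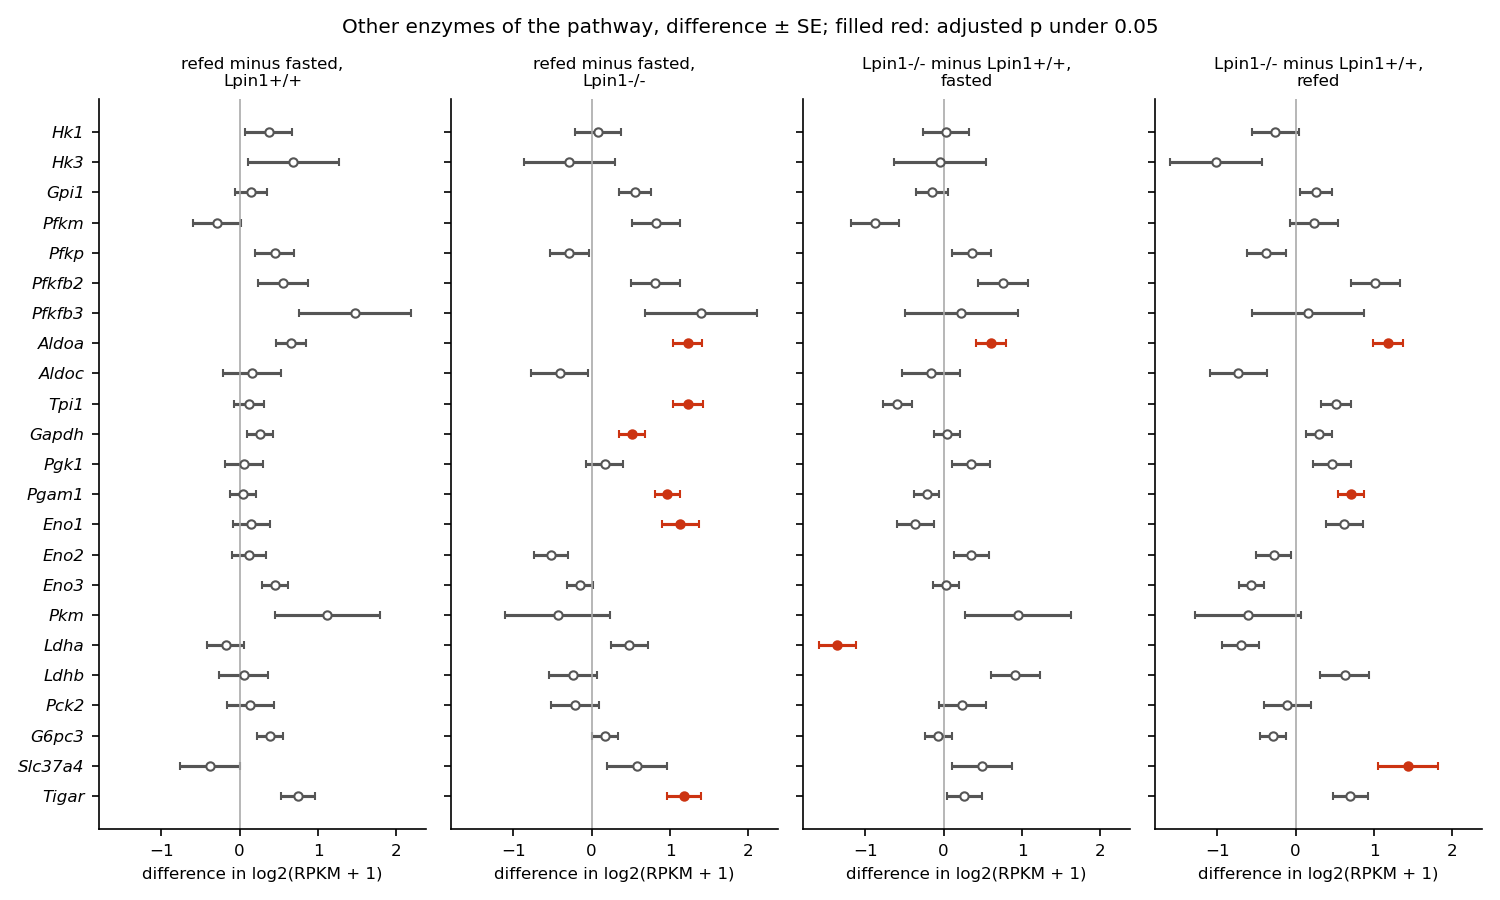
Difference in log2(RPKM + 1), with its SE, of 23 tested enzymes of glycolysis and gluconeogenesis other than the 9 genes, in 4 comparisons. Filled red points have an adjusted p under 0.05 over all genes. On refeeding, 0 are red in Lpin1+/+ and 6 in Lpin1-/- liver, with Tpi1 at 1.23 the farthest right of the red points. The test of the difference between these responses, not drawn, called 0 of the 23.

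Another list held genes that bring substrate to gluconeogenesis or decide the fate of pyruvate. Of 26 tested, in fasted Lpin1-/- liver 3 were higher and 5 lower than in fasted Lpin1+/+ (4 and 4 with rescaled libraries). Of all genes 5.63% were higher and 13.2% lower there. Got1, the cytosolic aspartate aminotransferase, was at 1246 ± 338 RPKM in fasted Lpin1-/- and 239 ± 254 RPKM in fasted Lpin1+/+ liver (2.87, SE 0.67, adjusted p = 0.0136), and its refed difference was 4.07 (SE 0.67, adjusted p = 0.00718). The fasted call was lost without replicate 3 of fasted Lpin1+/+ (adjusted p = 0.0646, range 0.00204 to 0.0646). Pdk4, which turns off pyruvate dehydrogenase, was higher in fasted Lpin1-/- liver (15.5 ± 7.21 RPKM against 1.48 ± 0.544 RPKM, 2.65, SE 0.36, adjusted p = 9.01e-04). Gpd1, which links glycerol 3-phosphate to glycolysis, was lower (20.7 ± 4.52 RPKM against 135 ± 34.7 RPKM, −2.64, SE 0.30, adjusted p = 4.05e-04). In refed liver 2 were higher and 0 lower, among them Sds, serine dehydratase (1.62, SE 0.31, adjusted p = 0.0121), whose call was lost without replicate 1 of refed Lpin1-/- (adjusted p = 0.0539, range 0.00569 to 0.0539). Of all genes 2.6% were higher and 4.07% lower in refed liver. The shares of all genes on refeeding were 1.72% past the threshold in Lpin1+/+, and 17.8% higher and 2.92% lower in Lpin1-/- liver. On refeeding, 0 of 26 passed in Lpin1+/+ and 6 rose and 2 fell in Lpin1-/- liver (3 and 3 with rescaled libraries), where Gpd1 rose by 2.49 (SE 0.30, adjusted p = 6.89e-04), Aqp9, the glycerol channel of hepatocytes, rose by 1.23 (SE 0.29, adjusted p = 0.0136), and Pdk4 fell by 2.12 (SE 0.36, adjusted p = 0.00302). Without replicate 1 of fasted Lpin1-/-, the fasted differences were 3.07 for Pdk4 and −2.53 for Gpd1 and the refeeding changes −2.54 and 2.37, all past the threshold. The Aqp9 call was lost with rescaled libraries (adjusted p = 0.0562) and without replicate 2 of refed Lpin1-/- (0.0555, range 0.00490 to 0.0562).

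Of 28 regulators tested, 4 were higher and 4 lower in fasted Lpin1-/- than in fasted Lpin1+/+ liver (6 and 3 with rescaled libraries). Of all genes 5.63% were higher and 13.2% lower there. Txnip, a target of glucose-responsive transcription that limits glucose uptake, was at 265 ± 133 RPKM against 24.8 ± 5.77 RPKM (3.29, SE 0.36, adjusted p = 3.58e-04). Sik1, a kinase that restrains cyclic AMP-driven transcription, was higher by 2.45 (SE 0.54, adjusted p = 0.00993), and Foxo3 by 1.96 (SE 0.46, adjusted p = 0.0138, but 0.0607 without replicate 3 of fasted Lpin1+/+, range 0.00244 to 0.0607). In refed liver, 0 were higher and 2 lower in Lpin1-/-: Gcgr, the glucagon receptor (−0.99, SE 0.21, adjusted p = 0.0208), and Nr0b2, a corepressor (−1.16, SE 0.30, adjusted p = 0.0453, but 0.0663 with the replicate block). The Gcgr call was lost in 6 of 20 alternatives (range 0.0106 to 0.101), 5 of them leaving out a single refed library, and the Nr0b2 call in 12 (range 0.0352 to 0.156), 5 of them likewise. Neither held with rescaled libraries, where 1 regulator was higher and 0 lower. Of all genes 2.6% were higher and 4.07% lower in refed liver in the main fit. On refeeding, 0 of 28 passed in Lpin1+/+ and 8 rose and 2 fell in Lpin1-/- liver (8 and 4 with rescaled libraries). The shares of all genes on refeeding were 1.72% past the threshold in Lpin1+/+, and 17.8% higher and 2.92% lower in Lpin1-/- liver. Onecut1 rose by 2.35 (SE 0.63, adjusted p = 0.0234, range 0.00928 to 0.0860, lost in 4 of 20 alternatives, without a filter and without replicate 1 or 2 of fasted or replicate 1 of refed Lpin1-/-), Txnip fell by 3.15 (SE 0.36, adjusted p = 5.83e-04), and Foxo3 fell by 2.20 (SE 0.46, adjusted p = 0.00795). The Onecut1 mean went from 1.43 to 13.2 RPKM in Lpin1-/- liver. In Lpin1+/+ liver it also went up, from 3.11 to 30.4 RPKM (SD 30.5 when refed), not past the threshold. Mlxipl, whose product raises Pklr, rose on refeeding in Lpin1-/- liver by 1.43 (SE 0.34, adjusted p = 0.0138), from 12.1 to 21.7 RPKM in the fasted libraries to 41.6 to 53.7 RPKM in the refed ones. That call was lost without replicate 1 of fasted or replicate 2 of refed Lpin1-/- (range 0.00765 to 0.0596). Its difference on refeeding in Lpin1+/+ liver was 0.29 (SE 0.34, adjusted p = 0.747) and between genotypes in fasted liver −0.17 (SE 0.34, adjusted p = 0.763).

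Summed markers of position along the liver lobule also differed between genotypes, though such a sum rests most on its most abundant markers. The summed RPKM of 7 periportal markers, where gluconeogenesis is strongest, was 4474 to 5290 in fasted Lpin1-/- and 2242 to 3901 in fasted Lpin1+/+ libraries, and 4538 to 4746 against 1827 to 2194 in refed libraries. In fasted liver 1 of the 7 was called higher (5.63% of all genes), with a median difference of −0.11 against −0.14 for all genes. In refed liver 3 of 7 were called higher (2.6% of all genes), with a median of 0.75 against −0.07. Sds is on this list and on that of substrate entry. It was at 1046 ± 255 RPKM in fasted Lpin1-/- and 192 ± 82.4 RPKM in fasted Lpin1+/+ liver (SD, n = 3). The sum of 8 pericentral markers, where glycolysis is strongest, was 2372 to 6730 RPKM in fasted Lpin1-/- and 7665 to 9278 RPKM in fasted Lpin1+/+ libraries, with overlap in refed liver. In fasted liver 2 of the 8 were called lower (13.2% of all genes), with a median of −0.30. The sum of 8 stellate cell markers was 226 to 321 RPKM in fasted Lpin1-/- and 81.9 to 192 RPKM in fasted Lpin1+/+ libraries, with 0 of 8 called by limma (median 0.45) and 2 at an unadjusted p under 0.05. None of the markers on these lists was at 0 in all libraries. Fewer cells of a kind and less RNA per cell cannot be told apart in bulk liver, and the part of these markers in the differences above was not tested.

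Over the 12 libraries, the 9 genes did not vary as a single group. On the log2 scale the highest correlations were Pearson's r of 0.80 between Pck1 and Pcx and 0.80 between Pfkl and Pcx, followed by 0.67 between Slc2a2 and Pfkl and 0.67 between Slc2a2 and Fbp1. Pklr and Slc2a2, the genes past the threshold, had r = 0.62, and Pck1 and G6pc had r = 0.46. The lowest was −0.55, between Pfkfb1 and Slc2a2. Outside the list, Slc2a2 was most like Idh1 (0.97), Dclk3 (0.96), and Cideb (0.96), Pklr most like Tkfc (0.98), Dna2 (0.96), and Taf5 (0.96), and Pfkl most like Chdh (0.98), Med16 (0.98), and R3hdm2 (0.97). Pcx was most like Cpt1a (0.95), Phlpp1 (0.94), and Sgms2 (0.92), Fbp1 most like Ugt3a2 (0.89), Pxmp2 (0.89), and Gstp1 (0.88), and Pfkfb1 most like Gin1 (0.87), Clk4 (0.85), and Gnl2 (0.85). The closest genes were more distant for G6pc (Adck3, 0.87, then Tcn2 and Nlrp12, each 0.85), Pck1 (Ppm1k, 0.83, then Snx29 and Klhl21, each 0.81), and Gckr (Hbb-bt, 0.69, and Clk1, 0.64). These are descriptions over libraries that share genotype, feeding state, and scaling.

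For Pck1 and G6pc, the exon level showed a difference between fasted genotypes that the gene level did not. Skipped exon (SE) events count the reads that include an exon and those that join its neighbors past it. In fasted liver 162 SE events fell in the 9 genes, 153 had at least 10 counts in every library, and 42 of these differed between genotypes (limma adjusted p under 0.05), 40 with lower and 2 with higher inclusion in Lpin1-/-. Of all 69644 events tested in fasted liver, 10.8% passed, 7.54% with lower and 3.26% with higher inclusion. In refed liver 0 of the 111 tested events passed in limma, while 16 had an unadjusted p under 0.05, against 1.03% past the threshold among 65231 events (0.858% lower, 0.17% higher). That refed share rests on all 6 libraries, since leaving out any 1 left 0 to 13 events called over all genes. The 42 events are not independent, since overlapping forms of an exon share the reads that skip it, and they fell on 8 skipping junctions. Their number was 27 without the first fasted Lpin1+/+ library of the deposited lists and 26 without the first or the second Lpin1-/- library. Of the 40 with lower inclusion, 22 were in Pck1, 16 in G6pc, and 2 in Gckr, all in coding exons. No event passed in Pklr, Pfkl, Pfkfb1, or Fbp1 in this fit. Among events whose rarer form had a mean of at least 5 counts, 2 of Fbp1 (adjusted p = 0.0147 and 0.0148) and 1 of Pfkfb1 (adjusted p = 0.0224) also passed in fasted liver.

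The exons shown are Pck1 exon 3 and G6pc exons 3 and 4, numbered as in the transcripts Pck1-201 and G6pc-201 of GENCODE M21. Their sequences are given here on the coding strand, with the first and last 3 bases in capitals, followed by the join that the skipping reads cross, with the last 15 bases of the exon before in lower case and the first 15 bases of the exon after in capitals.
Pck1 exon 3 (chr2:173153935-173154116, 182 bases): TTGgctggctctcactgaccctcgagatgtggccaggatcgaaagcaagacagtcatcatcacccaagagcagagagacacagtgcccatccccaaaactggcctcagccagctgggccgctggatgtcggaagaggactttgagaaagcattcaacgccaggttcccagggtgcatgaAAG
Join of Pck1 exons 2 and 4: gaaatatgacaactgGCCGCACCATGTATG
G6pc exon 3 (chr11:101372702-101372807, 106 bases): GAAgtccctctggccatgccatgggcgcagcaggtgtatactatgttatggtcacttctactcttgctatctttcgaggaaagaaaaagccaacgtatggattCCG
Join of G6pc exons 2 and 4: gtgagaccggaccagGTGTTTGAACGTCAT
G6pc exon 4 (chr11:101374590-101374705, 116 bases): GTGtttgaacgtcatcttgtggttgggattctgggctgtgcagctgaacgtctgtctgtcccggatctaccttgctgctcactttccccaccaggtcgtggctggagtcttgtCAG
Join of G6pc exons 3 and 5: aacgtatggattccgGCATTGCTGTGGCTG
None of these 3 lengths is a multiple of 3. In the annotated reading frame, leaving out Pck1 exon 3 brought a stop after 97 of 622 codons, leaving out G6pc exon 3 after 115 of 357, and leaving out G6pc exon 4 after 153 of 357.

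Pck1 exon 3 was skipped in fasted Lpin1-/- liver alone among the fasted libraries. It had 0, 0, and 0 skipping counts in the 3 fasted Lpin1+/+ libraries, beside 130183, 26728, and 17805 inclusion counts, and 0 of 174716 counts allows a share of up to 0.00631% once counts are divided by form length, the scale of the shares below. The fasted Lpin1-/- libraries had 194, 415, and 42 skipping counts beside 11881, 24195, and 47589 inclusion counts. On that scale the skipping form made up 5.66%, 5.93%, and 0.323% of the total, so the third Lpin1-/- library in the deposited list was far below the others but above all Lpin1+/+ libraries (adjusted p = 0.00131). The most skipping was thus not in the libraries with the most Pck1 reads. Pck1 exon 7 (chr2:173156912-173157136, 225 bases, or 75 codons in frame) was skipped at 0.467%, 0.398%, and 0.243% in fasted Lpin1-/- and 0.0189%, 0.0561%, and 0% in fasted Lpin1+/+ liver (adjusted p = 0.0111). In refed liver its skipping counts were 0, 1, and 2 in Lpin1+/+ and 2, 0, and 0 in Lpin1-/-, and the exon 3 event is not in the refed table.

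G6pc showed low-level skipping of each of its 3 inner exons in fasted Lpin1-/- liver. For exon 4 the skipping form made up 3.01%, 3.90%, and 1.75% in Lpin1-/- and 0.173%, 0.108%, and 0% in Lpin1+/+ (38, 56, and 118 against 9, 2, and 0 skipping counts, adjusted p = 0.00366). For exon 3 it made up 1.44%, 0.789%, and 0.579% against 0.0220%, 0%, and 0% (15, 9, and 33 against 1, 0, and 0 counts, adjusted p = 0.00340). For exon 2 (chr11:101370706-101370815, 110 bases) it made up 0.260%, 0.230%, and 0.148% in Lpin1-/-, from 3, 3, and 10 counts, against 0 of 21763 counts in Lpin1+/+ (adjusted p = 0.0234). Every fasted Lpin1-/- library was above every fasted Lpin1+/+ library for all 3 exons. These exons were named because they passed, so that separation is no further support. The share of all events whose groups do not overlap was not computed. In refed liver exon 4 had 4, 4, and 0 skipping counts in Lpin1-/- and 0, 0, and 1 in Lpin1+/+ (adjusted p = 0.986), and the other exons are not in the refed table. Whether the difference between genotypes itself changed with feeding was not tested.

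Inclusion stayed above 94% in every library for the coding exons named here, and the changed share of transcripts was small. Gckr exon 14 (chr5:31308185-31308281, 97 bases) had 3, 4, and 1 skipping counts in fasted Lpin1-/- and 0 in all fasted Lpin1+/+ libraries (adjusted p = 0.0448). In refed liver it had 1, 3, and 2 against 0, 0, and 0 counts (adjusted p = 0.150). The 2 events of higher inclusion were of rarely used exons. In Pcx, an exon of 160 bases (chr19:4600644-4600803) was included at 5.63%, 5.23%, and 7.13% in fasted Lpin1-/- and 2.09%, 0%, and 0% in fasted Lpin1+/+ (adjusted p = 0.0218). Its inclusion counts were 2, 5, and 17 in Lpin1-/-, beside 10, 27, and 66 skipping counts. In Lpin1+/+ they were 20, 0, and 0, beside 279, 58, and 84 skipping counts. In Slc2a2, a stretch of 72 bases (chr3:28709545-28709616) rested on 4 inclusion counts in 1 Lpin1-/- library and 0 in the other 5 (adjusted p = 0.0248). Its skipping counts were 954, 460, and 587 in Lpin1+/+ and 80, 136, and 128 in Lpin1-/-. With 0 inclusion counts and 0.5 added, the tested ratio follows the skipping counts alone. This call therefore does not by itself show higher inclusion. Neither the Pcx nor the Slc2a2 stretch is an exon of any GENCODE M21 transcript of its gene. In refed liver, 3 overlapping events of Fbp1 on the same skipping junction as the fasted Fbp1 events (the first at chr13:62867339-62867457) passed only under that limit on the rarer form (adjusted p = 0.0344 to 0.0353), with 99.2% inclusion in Lpin1-/- and 99.8% in Lpin1+/+ for the first. They were named after their values were seen.

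**Figure D5:**
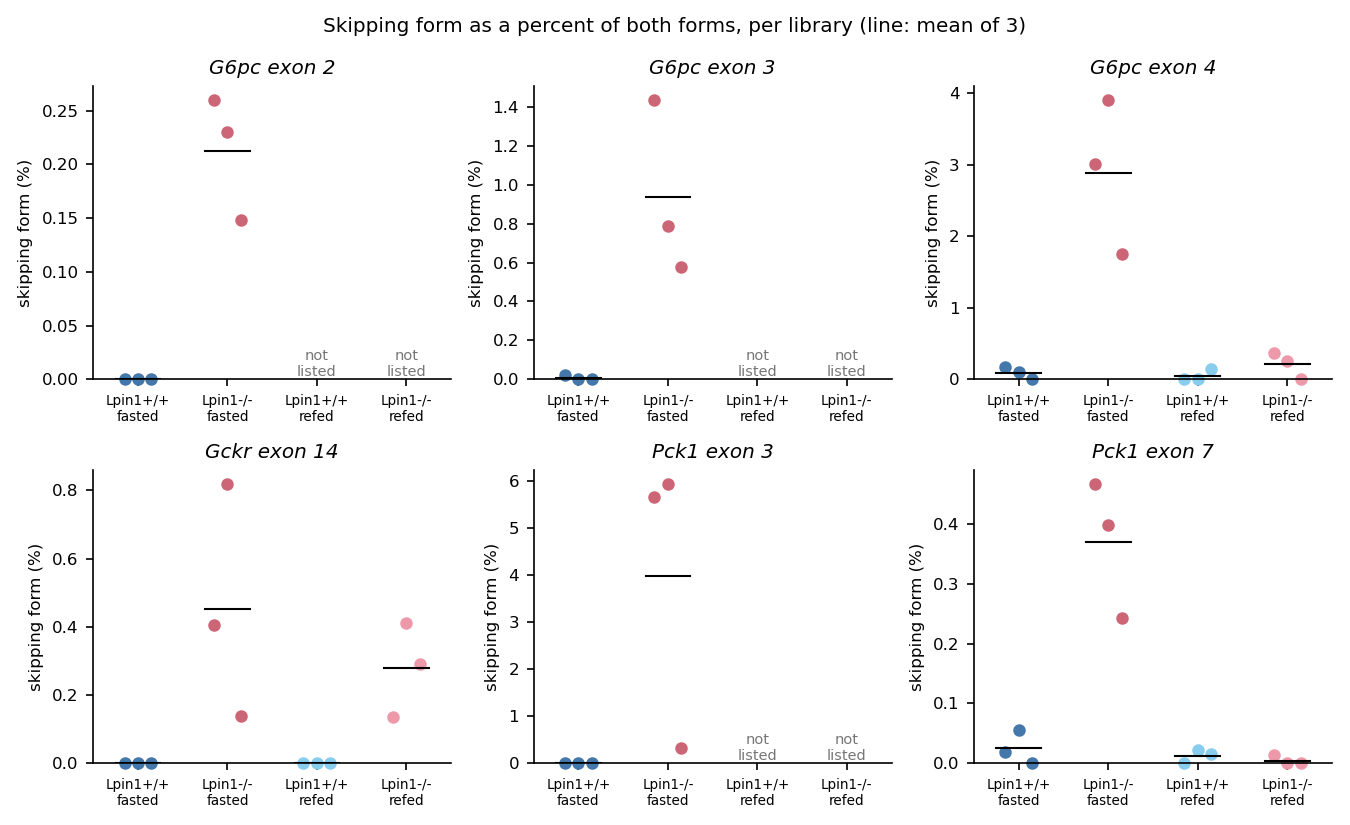
Skipping form as a percent of both forms, with counts divided by form length, for 6 coding exons of G6pc, Gckr, and Pck1 (linear axis from 0, scaled to each panel). Points are libraries in the order of the deposited lists, lines the mean of 3. Every fasted Lpin1-/- library lies above every fasted Lpin1+/+ library, and the highest value is 5.93% for Pck1 exon 3. The exons were chosen because they held events called in fasted liver, so this separation follows in part from the choice.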

How the data were processed

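Liver RNA was sequenced by the authors as stranded, paired-end libraries. Per the submitters' processing notes, HISAT2 2.0.5, HTSeq 0.6.0 and DESeq2 1.20.0 were used, and gene levels were deposited as RPKM. Other deposited tables, made with rMATS, hold counts of reads that include or skip each exon; their columns of fold changes and p-values were not used. Groups came from the sample labels. RPKM values were tested as log2(RPKM + 1) with limma 3.58.1 (R 4.3.3), with a trend in the variance and all 12 libraries in 1 fit, over genes averaging 0.5 RPKM or more. Adjustment was by Benjamini-Hochberg over all 11507 genes, with a threshold of 0.05. Exon events with at least 10 counts in each of 6 libraries entered a limma fit of log2 inclusion over skipping counts, each divided by form length after 0.5 was added. The event lists carry no replicate numbers, so libraries are named by list position, and their groups were settled by matching counts between tables. Intervals of 95% come from the limma fit and rest on the spread between mice. Limits for counts of 0 (3 counts) cover counting error only. The fits were tested on simulated data. Named were all 9 genes, Lpin1, Pkm, Mlxipl, the 3 genes past the threshold with the largest change per list and comparison, and the 3 genes most like each of the 9. A few genes that this rule or the lists would name are not reported here. The members and lists were chosen with earlier results of these data known. Alternatives changed the pseudocount, filter, scaling, variance trend, libraries and replicate block; voom on recovered reads was chosen after seeing the data. Each library is from an individual mouse.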

Additional observations from a re-analysis of the deposited data

Results flagged for a closer look

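For 4 genes of the substrate and regulator lists, the refeeding response differed between genotypes by the test of the difference itself (limma, adjusted over all genes). Of all genes 1.28% passed this test. Gpd1 had a response 2.29 higher (log2) in Lpin1-/- than in Lpin1+/+ liver (SE 0.42, adjusted p = 0.0316), and its call was lost in 9 of 19 alternatives (range 0.0156 to 0.101). Gk, glycerol kinase, had a response 1.75 higher (SE 0.22, adjusted p = 0.00664, range 0.00334 to 0.0345), with 36.0 ± 4.67 RPKM in fasted Lpin1+/+ and 10.1 ± 0.928 RPKM in fasted Lpin1-/- against 22.6 ± 1.99 and 22.8 ± 0.528 RPKM after refeeding (SD, n = 3). Txnip had a response of −2.49 relative to Lpin1+/+ (SE 0.51, adjusted p = 0.0398), and its call was lost in 12 of 19 alternatives (range 0.0247 to 0.0932). Nr1h4, the bile acid receptor FXR, had a response 2.04 higher (SE 0.27, adjusted p = 0.00794, range 0.00597 to 0.0383), with 18.4 ± 2.16 RPKM in fasted Lpin1-/- against 52.2 ± 6.998 RPKM in fasted Lpin1+/+.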

How the results depend on the processing

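Of 32 called single-gene results, 554 values under an alternative kept their call and 82 lost it. With rescaled libraries the sign turned for Pklr (−0.21) and Pfkfb1 (−0.10) on refeeding in Lpin1+/+, for Gckr (−0.20), Pfkfb1 (−0.19) and Fbp1 (−0.038) on refeeding in Lpin1-/-, and for Gckr between fasted genotypes (0.025), none of them called. Leaving out 1 library at a time turned the sign of uncalled differences within these ranges. On refeeding in Lpin1+/+ they were −0.25 to 0.024 for Gckr, −1.16 to 0.011 for Pck1, −0.070 to 0.38 for Pfkfb1, −0.025 to 0.56 for Pfkl, −0.28 to 0.43 for Pklr and −0.037 to 0.59 for Mlxipl. On refeeding in Lpin1-/- they were −0.14 to 0.24 for Gckr, −0.17 to 0.18 for Pcx and −0.034 to 0.15 for Pfkfb1. Between fasted genotypes they were −0.62 to 0.73 for G6pc, −0.28 to 0.087 for Gckr, −1.03 to 0.14 for Pck1 and −0.50 to 0.13 for Mlxipl. Between refed genotypes they were −0.028 to 0.18 for Fbp1, −1.34 to 0.086 for Pck1 and −1.31 to 0.40 for Pkm. For the difference between responses they were −0.046 to 0.33 for Gckr, −0.81 to 0.62 for Pck1, −0.32 to 0.13 for Pfkfb1 and −0.26 to 0.32 for Pfkl. Leaving out 1 library gave 1 to 2 of the 9 genes called on refeeding in Lpin1-/-, 0 to 1 between refed genotypes, 0 to 1 for the difference between responses and 26 to 47 exon events in fasted liver. A minimum of 5 RPKM gave 1 gene between refed genotypes and 1 for the difference between responses, where a pseudocount of 0.1 and rescaled libraries also gave 1, against 0. A mean of at least 5 counts for the rarer form gave 3 refed exon events, against 0. The causes were not tested.

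Over all genes, 198 were called on refeeding in Lpin1+/+, against 49 with rescaled libraries, 93 with the replicate block and 0 with 6 libraries only. Between fasted genotypes 2168 were called, against 1011 with 6 libraries only. For the difference between responses 147 were called, against 83 without a filter, 321 with rescaled libraries and 81 with the replicate block. Refed exon events called were 671, against 1231 with 1 added to each count and 1292 with the limit on the rarer form. When any 1 refed library was left out, only 0 to 13 refed events were called. Replicate numbers are shared by the groups, but only the refed genotypes had deviations that correlated above 0.1 at every number (0.19, 0.30 and 0.16). The replicate block left the counts over the 9 genes at 0, 1, 2, 0 and 0. Between refed genotypes it ended the calls of Slc37a4 (adjusted p = 0.0800), Pgam1 (0.0552) and Nr0b2 (0.0663). Depth did not limit gene levels, while exon events with few skipping counts rest on counting error.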
